A study of Mus musculus with 6 samples.

Results

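The cornified envelope and epidermal differentiation genes are 58 of the 49671 rows of a mouse RNA sequencing table. They were chosen by name, not by their values: every gene named Sprr or Lce followed by a digit, and 20 further genes whose products build, cross-link or mature the outer layer of the skin. RNA was read from basal keratinocytes of ear epidermis in 3 groups of CD1 mice, an outbred stock: castrated males, females and intact males, with 2 libraries per group. Each library held polyA RNA of 100000 living cells pooled from 2 mice of 1 litter, sorted for integrin alpha 6 and against CD34, a gate meant to keep basal cells of the interfollicular epidermis and to leave out the hair follicle bulge. The labels used here give no genotype, age or time since castration. Because a library is a pool from 1 litter, a difference between groups and a difference between litters cannot be told apart, and p-values measure the spread between pools.

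The cornified envelope is a shell of cross-linked protein that replaces the plasma membrane of keratinocytes as they leave the living layers of the epidermis. Transglutaminases join involucrin, loricrin, small proline-rich proteins (Sprr) and late cornified envelope proteins (Lce) into this shell, while filaggrin, cut from a large precursor, bundles keratin filaments and is then broken down into moisture-binding amino acids. Basal cells divide beneath these layers and are known to hold little of the messenger RNA for envelope proteins, and Sprr genes are known to be switched on in wounded or inflamed epidermis. Most of these genes sit side by side in the epidermal differentiation complex. In the GRCm38 build with GENCODE M21 annotation, 46 of the 58 members lie on chromosome 3 between 92080271 (Lor) and 93449077 (Tchh), a span of 1369 kb, and 12 lie elsewhere (Asprv1, Calm4, Calml3, Casp14, Cnfn, Dmkn, Hal, Krtdap, Nccrp1, Sbsn, Tgm1 and Tgm3).

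The DNA just before the transcription start is shown for some Sprr2 genes and for 2 Lce1 genes. Whether these letters go with the levels of the genes was not tested. Each line gives the 250 bases before the RefSeq start in GRCm38.p6, read 5′ to 3′ on the gene's own strand, with the TATA box letters TATAAA and the AP-1 letters TGANTCA in capitals. Sprr2d, Sprr2b and Sprr2h carry both motifs and were called higher in females than in intact males. Sprr2b and Sprr2h passed the filter on low values, described below, only through the female libraries. Sprr2e and Sprr2i also carry both motifs and were not called, and Sprr2f and Sprr2k carry both and were not tested. Sprr2a1 was also called higher in females and carries neither. Lce1m was lower in females, and Lce1c stands for the other Lce1 genes.
Sprr2d: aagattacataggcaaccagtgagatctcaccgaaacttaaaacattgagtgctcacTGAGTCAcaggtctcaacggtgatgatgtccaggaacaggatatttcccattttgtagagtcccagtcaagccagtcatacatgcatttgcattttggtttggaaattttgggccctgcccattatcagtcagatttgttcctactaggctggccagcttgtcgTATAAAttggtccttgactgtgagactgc
Sprr2b: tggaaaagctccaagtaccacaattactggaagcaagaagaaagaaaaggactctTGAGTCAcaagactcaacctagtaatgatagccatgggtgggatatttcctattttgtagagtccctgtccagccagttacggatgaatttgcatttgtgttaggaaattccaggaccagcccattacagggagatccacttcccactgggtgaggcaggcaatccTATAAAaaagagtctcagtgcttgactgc
Sprr2h: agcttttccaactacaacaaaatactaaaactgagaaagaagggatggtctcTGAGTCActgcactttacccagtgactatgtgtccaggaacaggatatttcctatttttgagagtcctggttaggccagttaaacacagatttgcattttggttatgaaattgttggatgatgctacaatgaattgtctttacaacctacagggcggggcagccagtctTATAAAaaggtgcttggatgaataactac
Sprr2a1: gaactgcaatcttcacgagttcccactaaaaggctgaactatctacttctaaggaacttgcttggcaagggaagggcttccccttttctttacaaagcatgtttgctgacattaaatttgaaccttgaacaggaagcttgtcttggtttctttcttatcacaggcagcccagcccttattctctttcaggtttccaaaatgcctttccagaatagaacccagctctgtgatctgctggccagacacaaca
Lce1m: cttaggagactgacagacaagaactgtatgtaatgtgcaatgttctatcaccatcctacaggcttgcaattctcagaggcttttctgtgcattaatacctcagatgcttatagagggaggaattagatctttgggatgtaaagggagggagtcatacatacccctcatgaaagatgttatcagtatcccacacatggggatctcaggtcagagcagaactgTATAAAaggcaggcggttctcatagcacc
Lce1c: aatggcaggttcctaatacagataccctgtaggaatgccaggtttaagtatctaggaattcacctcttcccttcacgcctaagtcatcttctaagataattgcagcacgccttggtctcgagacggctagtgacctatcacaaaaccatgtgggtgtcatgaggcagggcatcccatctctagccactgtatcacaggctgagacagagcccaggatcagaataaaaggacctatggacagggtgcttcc
These stretches lie at chr3:92338890-92339139 (Sprr2d), chr3:92316455-92316704 (Sprr2b), chr3:92385435-92385684 (Sprr2h), chr3:92215585-92215834 (Sprr2a1) and chr3:92678997-92679246 (Lce1c) on the plus strand, and at chr3:93019062-93019311 (Lce1m) on the minus strand.

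The motif letters were searched on both strands in windows of 300 bases, 250 before and 50 after the start, which RefSeq gives for 51 of the 58 members. The TATA letters were in 22 of 51 members' windows, against 13.6% of all 32851 windows, and the AP-1 letters in 18 of 51, against 7.8%. Among 10 Sprr2 windows 7 held the TATA letters with their first base at position -29 and the AP-1 letters between -193 and -198, counted back from the start, and Sprr2k held a further AP-1 match at -182. None of the windows of Sprr2a1, Sprr2a2 and Sprr2a3 held either motif. Of 13 Lce1 windows 2 held the TATA letters (Lce1d and Lce1m) and 0 the AP-1 letters. Ivl, Lor, Flg, Rptn, Sprr1a, Sprr1b, Krtdap and Hal held both motifs, and Flg2, Sbsn and Dmkn held the AP-1 letters alone. TGTTCT, letters found in androgen and glucocorticoid receptor sites, were in 14 of 51 windows (19.0% of all), CCACCC, letters bound by Klf factors, in 16 (31.5% of all) and TGACNNNGC, letters of Maf sites, in 9 (12.4% of all). Over the 250 bases before the start, global alignment gave an identity of 60.8% to 89.3% among the 7 Sprr2 genes other than Sprr2a, and 45.8% to 51.7% between them and the Sprr2a genes. Lce1m matched the other 12 Lce1 genes at 50.9% to 54.8%, while those 12 matched each other at 51.3% to 85.6% (median 65.2%). Low identity was also seen for Lce1l, 1 of those 12, which matched the rest of them at 51.3% (Lce1c) to 55.4% (Lce1i). The log2 fold change of Lce1l in females against intact males was 0.0. Whether identity goes with level was not tested. Sprr2d and Lce1c, from different families, matched at 50.6%. These are matches of letters and describe no binding.

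The libraries held 8412487 to 9648154 reads, and 15413 genes passed the filter on low values. Values are CPM, reads relative to a library's scaled size; in each pair of values replicate 1 comes before replicate 2, and n = 2 per group throughout. A gene with 0 reads in a library may have up to 3, which is 0.307 to 0.385 CPM. The single-copy Y genes (Ddx3y, Eif2s3y, Kdm5d and Uty) ran from 341 to 1937 reads per castrated or intact male library, and from 0 to 2 per female library. The keratins of basal cells, Krt5 and Krt14, stood at 10000 to 13400 and 12500 to 17400 CPM, and Cd34 at 1.49 to 3.05 CPM, in the 6 libraries. Krt10, a keratin of the layers above, stood at 153 to 232 CPM, and Krt1, its partner, at 77.5 and 50.9 CPM in castrated males, 106 and 143 CPM in females, and 28.9 and 41 CPM in intact males. Krt2, a keratin read below with other envelope constituents, stood far higher, at 8590 to 10700 CPM. The part of cells from the layers above in these pools was not tested. Fold changes are log2 values with standard errors, computed on log2(CPM + 0.5), and understate changes of genes with few reads. A gene was called where limma's adjusted p, over all 15413 genes, was below 0.05.

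The 58 members made up a small part of the RNA of these basal cells: 0.292% and 0.326% of reads in castrated males, 0.335% and 0.456% in females, and 0.266% and 0.213% in intact males. Other envelope constituents, with genes of desmosomes and plakins, were read as a separate list that summed to 15400 to 18300 CPM per library. Krt2, a keratin of that list, held 8590 to 10700 CPM. Calm4, Krtdap, Dmkn and Tgm3 held 70.2% to 83.3% of the members' summed CPM in each library. Reads were found for 57 of the 58 members, Sprr3 had 0 reads in every library, and 46 passed the filter. Of these 46, Rptn, Lce3c, Sprr2b, Sprr2e, Sprr2h and Sprr2i passed only because both female libraries were high, so their counts among females are given apart.

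In females against intact males, 13 of 46 tested members rose and 2 fell, against 3.70% of all tested genes called higher and 2.39% called lower. The 13 were Asprv1, Cnfn, Crct1, Flg, Krtdap, Lce3c, Rptn, Sprr1a, Sprr2a1, Sprr2a2, Sprr2b, Sprr2d and Sprr2h; Lce1m and Flg2 fell. Leaving aside those 6 members, 9 of 40 rose and 2 fell; with Sprr2a1 and Sprr2a2, whose annotated spans overlap, taken once, 12 of 45 rose and 2 fell. Both female libraries lay above both intact male libraries for 34 of 46 members (26.6% of all tested genes) and below them for 3 (27.2% of all). Without the 6 members that passed the filter only through the females, they lay above for 28 of 40 and below for 3. The median log2 fold change of the 46, with those 6 included, was 0.84, and that of all tested genes -0.012. Because RNA was read in bulk, more cells that hold a transcript and more RNA per cell cannot be told apart here.

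In castrated against intact males, limma called 0 of 46 members, against 0.0130% of all genes called higher and 0.0260% called lower. At an unadjusted p below 0.05 there were 22 of 46 members, all of them higher in castrated males, against 5.93% of all tested genes in either direction. Of these 22, 12 were Lce1 genes, relatives that need not vary independently. Without the members that passed the filter only through the females, there were 21 of 40. Both castrated libraries lay above both intact male libraries for 24 of 46 members (17.3% of all) and below for 1, Sprr2a3 (18.2% of all). Without the members that passed only through the females, they lay above for 23 of 40. The median log2 fold change was 0.83 over the members and 0.001 over all tested genes.

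In castrated males against females, 2 members rose (Lce1m and Flg2; 0.571% of all genes were called higher) and 6 fell (Rptn, Sprr2a1, Sprr2a2, Sprr2b, Sprr2d and Sprr2h; 1.15% of all genes were called lower). Leaving aside the 6 members named above, 2 of 40 rose and 3 fell, and with Sprr2a1 and Sprr2a2 taken once, 2 of 45 rose and 5 fell. All 8 were also called in females against intact males, in the opposite sense; the comparisons share the female libraries. Both castrated libraries lay above both female libraries for 13 of 46 members (29.4% of all) and below for 18 (28.3% of all); without those 6 members, below for 12 of 40. The intact males serve as controls in both comparisons with them, so the values of those comparisons are given side by side for each gene.

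The Sprr2 genes, whose short proline-rich products bridge other envelope proteins, were highest in females. Summed over the 13 Sprr2 genes, the level was 9.78 and 30.6 CPM in castrated males, 146 and 617 CPM in females, and 35.7 and 15.2 CPM in intact males. With Sprr2a2 left out, whose span overlaps that of Sprr2a1, the sum was 6.93 and 18.3 CPM in castrated males, 100.2 and 509.5 CPM in females, and 30.3 and 10.3 CPM in intact males. Both female libraries lay above the other 4, and female replicate 2 stood far above female replicate 1. Of 8 tested Sprr2 genes 5 rose in females against intact males and none fell, but Sprr2b, Sprr2e, Sprr2h and Sprr2i would not have passed the filter without the female libraries. Of the other 4, Sprr2a1, Sprr2a2 and Sprr2d rose, or 2 of 3 with Sprr2a1 and Sprr2a2 taken once; 3.70% of all tested genes were called higher.

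Sprr2d (chromosome 3, 92339140 to 92340873, plus strand) had 1.36 and 0.797 CPM in castrated males, 23.4 and 196 CPM in females, and 6.92 and 0.47 CPM in intact males. It rose in females against intact males (log2 fold change 4.68 ± 1.04, limma adjusted p = 0.0374) and fell in castrated males against females (-5.46 ± 1.04, adjusted p = 0.0428). Its intact male libraries also lay far apart, on either side of both castrated libraries. Sprr2h had 0.455 and 1.71 CPM in castrated males, 6.65 and 20.5 CPM in females, and 0.639 and 0.117 CPM in intact males, where 0.117 CPM was 1 read (females against intact males 3.87 ± 0.60, adjusted p = 0.0137). Sprr2b had 0.227 and 0 CPM in castrated males, 5.32 and 35.4 CPM in females, and 0.533 and 0 CPM in intact males (4.33 ± 0.76, adjusted p = 0.0199). For both genes the castrated and intact male libraries stayed at 1.71 CPM or less, below both female libraries.

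Sprr2a1 had 2.84 and 11.8 CPM in castrated males, 43.5 and 104 CPM in females, and 5.11 and 4.82 CPM in intact males (females against intact males 3.63 ± 0.57, adjusted p = 0.0145; castrated males against females -3.40 ± 0.57, adjusted p = 0.0297). Sprr2a2 gave nearly the same values, 45.8 and 107 CPM in females. These 2 rows are not separate measurements: the annotated spans of the genes overlap, 94.3% and 94.7% of their 75-base stretches occur in other genes, so how reads were split between the pair is uncertain. Sprr2a3, which shares 47.5% of its stretches, had 1.71 and 3.87 CPM in castrated males, 15.1 and 94.5 CPM in females, and 14 and 4.7 CPM in intact males. It was not called in any comparison, and its female replicate 1 lay close to its intact male replicate 1.

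Sprr2e had 0.114 and 0 CPM in castrated males, 2.35 and 19.4 CPM in females, and 0.959 and 0 CPM in intact males, and was not called (females against intact males 3.14 ± 0.84, adjusted p = 0.0618). Sprr2i had 0.227 and 0.114 CPM in castrated males, 3.17 and 31 CPM in females, and 1.38 and 0.117 CPM in intact males, and was not called either (3.32 ± 0.89, adjusted p = 0.0634). In both, female replicate 2 was the highest library by far, and the female libraries lay above the other 4. Below the filter, Sprr2f had 0 reads in both castrated libraries, 0.102 and 5.13 CPM in females, and 0.746 and 0.117 CPM in intact males. Sprr2g was seen only in females, at 0.204 and 2.82 CPM, at least 4.50-fold higher than a limit of 3 reads per library allows for intact males; this bound rests on female replicate 2, since female replicate 1 lay under that limit. Sprr2c-ps, Sprr2j-ps and Sprr2k, the first 2 of them pseudogenes by name, had 3, 6 and 1 reads in all 6 libraries.

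Sprr1a and Sprr1b are the classical small proline-rich proteins of stressed squamous cells. Sprr1a had 1.82 and 4.9 CPM in castrated males, 8.59 and 23.1 CPM in females, and 3.3 and 2.47 CPM in intact males, and rose in females against intact males (2.12 ± 0.51, adjusted p = 0.0456). Sprr1b had 2.73 and 6.03 CPM in castrated males, 11.5 and 39.1 CPM in females, and 6.28 and 0.822 CPM in intact males (2.86 ± 0.77, adjusted p = 0.0639, not called). The female libraries lay above the other 4 for both genes. Sprr4 had 1 read in all, in female replicate 2, which was the highest library for all 10 tested Sprr genes and for 31.6% of all tested genes. Without female replicate 2, no Sprr gene was called in females against intact males (Sprr2d 3.16, adjusted p = 0.302; Sprr2a1 3.01, adjusted p = 0.158; Sprr2h 3.10, adjusted p = 0.134), and the females still lay above the intact males.

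**Figure D1:**
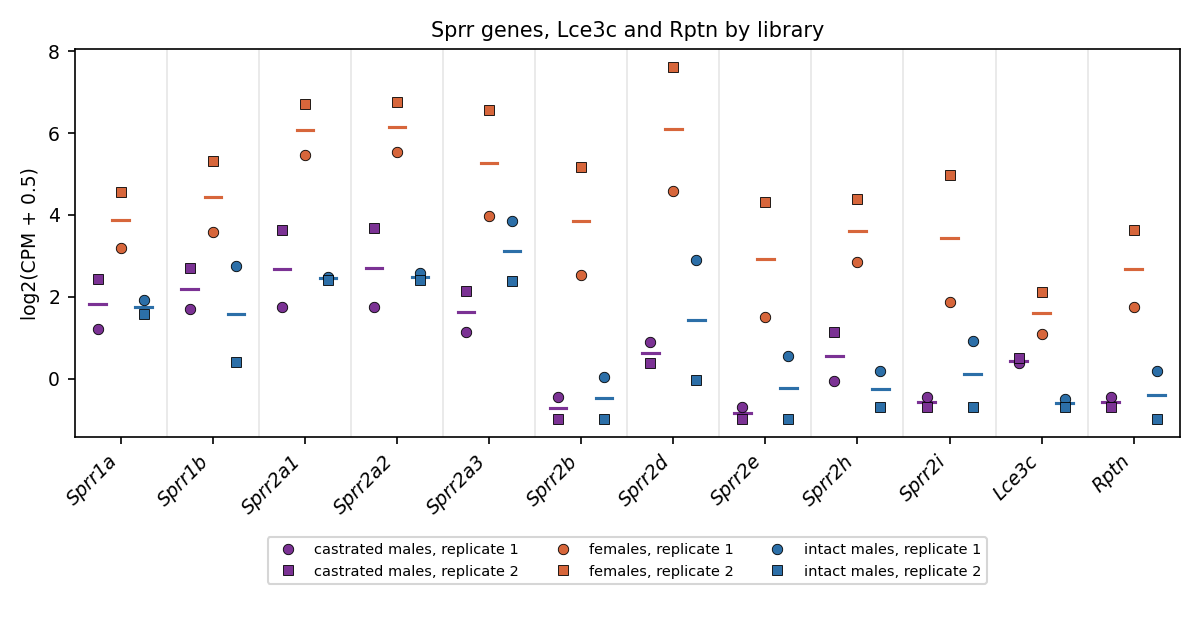
Level of the 10 tested Sprr genes, Lce3c and Rptn as log2(CPM + 0.5) in each library; circles are replicate 1, squares replicate 2, and bars the group means. The 2 female libraries (orange) lie above all castrated male (purple) and intact male (blue) libraries for each gene, with female replicate 2 the highest.

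The Lce3 genes, late envelope genes known from human skin to be induced when the barrier is injured, were close to 0 outside females. Their summed level was 0.91 and 1.02 CPM in castrated males, 3.99 and 12.8 CPM in females, and 0.32 and 0.117 CPM in intact males. Lce3c alone passed the filter, because of the female libraries, with 0.796 and 0.911 CPM in castrated males, 1.64 and 3.85 CPM in females, and 0.213 and 0.117 CPM in intact males. It rose in females against intact males (2.20 ± 0.43, adjusted p = 0.0253), and the castrated libraries lay between the other groups without a call (against intact males 1.03 ± 0.43, adjusted p = 0.823; against females -1.17 ± 0.43, adjusted p = 0.166). Lce3a was seen only in females, at 0.92 and 3.46 CPM, as were Lce3b at 0.511 and 1.79 CPM and Lce3e at 0.307 and 1.28 CPM. With intact males at 0 reads, females were at least 6.52-fold higher for Lce3a, 3.81-fold for Lce3d, 3.43-fold for Lce3b and 2.36-fold for Lce3e, set against 3 reads per library; for Lce3e the bound rests on female replicate 2, since replicate 1 lay under that limit. Lce3d had 0.114 and 0 CPM in castrated males and 0.511 and 2.05 CPM in females, and Lce3f 6 reads in all. Lce3c, Lce3d, Lce3e and Lce3f share 28% to 45.6% of their 75-base stretches with other genes, so the division of reads among them is uncertain.

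Rptn, which encodes repetin, a fused S100-type protein of the envelope, was also highest in females. It had 0.227 and 0.114 CPM in castrated males, 2.86 and 11.8 CPM in females, and 0.639 and 0 CPM in intact males. It rose in females against intact males (3.09 ± 0.63, adjusted p = 0.0289) and fell in castrated males against females (-3.27 ± 0.63, adjusted p = 0.0449). Rptn would not have passed the filter without the female libraries, and without female replicate 1 or female replicate 2 Rptn, Lce3c and Sprr2b were not tested.

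The Lce1 genes, the largest Lce group, had their highest summed level in castrated males. Summed over 14 genes, the level was 137 and 196 CPM in castrated males, 96.5 and 113 CPM in females, and 61.4 and 95.2 CPM in intact males. Both castrated libraries lay above both intact male libraries for 12 of 14 genes, against 17.3% of all tested genes, but none of the 14 was called (adjusted p = 0.375 to 1.0). All 14 fold changes were above 0, with a median of 1.00. Against females the castrated libraries lay above both female libraries for 9 of 14 genes (29.4% of all tested genes), with 1 call, of Lce1m. Castrated male replicate 2 was the highest library for 13 of 14 and intact male replicate 1 the lowest for 12 of 14, whereas these libraries were so for 10.7% and 18.0% of all tested genes. Females against intact males gave a median of 0.48 with 13 of 14 above 0, and 1 call, of Lce1m.

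Lce1c had the smallest p of the Lce1 genes in castrated against intact males: 24.2 and 24.3 CPM in castrated males, 14.3 and 15.6 CPM in females, and 9.27 and 14 CPM in intact males (castrated against intact males 1.06 ± 0.22, adjusted p = 0.375). It was called in 1 fit, without intact male replicate 2 (1.34, adjusted p = 0.045). Lce1a2 had 14.2 and 20 CPM in castrated males, 12.3 and 10.6 CPM in females, and 6.92 and 9.52 CPM in intact males, and Lce1a1 11.6 and 15.4 CPM, 8.28 and 10.6 CPM, and 3.73 and 7.99 CPM in the same order of groups. Lce1e had 10.4 and 13.7 CPM in castrated males, 6.95 and 9.36 CPM in females, and 3.52 and 6.11 CPM in intact males. In each of these the 3 groups stood apart without overlap, castrated males highest and intact males lowest.

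Lce1h had 4.89 and 9.56 CPM in castrated males, 4.6 and 4.23 CPM in females, and 2.13 and 2.7 CPM in intact males. Lce1g had 8.08 and 14.2 CPM in castrated males, 8.28 and 11.7 CPM in females, and 3.73 and 4.7 CPM in intact males. Lce1f had 9.67 and 18 CPM in castrated males, 10.5 and 13.7 CPM in females, and 6.18 and 8.34 CPM in intact males. For Lce1g and Lce1f the castrated and female libraries overlapped and all lay above the intact males. Lce1d had 4.09 and 7.97 CPM in castrated males, 4.6 and 4.49 CPM in females, and 2.88 and 3.29 CPM in intact males. Lce1b had 3.75 and 6.26 CPM in castrated males, 1.84 and 3.21 CPM in females, and 1.49 and 2.11 CPM in intact males. Females and intact males overlapped for Lce1b.

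Lce1i had 10.6 and 17.3 CPM in castrated males, 7.87 and 10.1 CPM in females, and 4.47 and 10.1 CPM in intact males. Lce1l had 11.7 and 17.5 CPM in castrated males, 6.85 and 7.82 CPM in females, and 5.75 and 9.28 CPM in intact males. Females and intact males overlapped for both, and the castrated libraries lay above them. Lce1j had 4.55 and 9.22 CPM in castrated males, 7.16 and 7.56 CPM in females, and 2.02 and 5.17 CPM in intact males, and Lce1k 0.682 and 4.1 CPM, 1.02 and 2.82 CPM, and 1.38 and 1.29 CPM in the same order of groups. These were the 2 Lce1 genes whose castrated and intact male libraries overlapped. Up to 13.5% of the 75-base stretches of an Lce1 gene occur in other genes, mostly of the same family. Lce6a, a late envelope gene apart from the group, had 1.82 and 2.28 CPM in castrated males, 1.23 and 1.79 CPM in females, and 1.38 and 1.64 CPM in intact males, with no call.

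**Figure D2:**
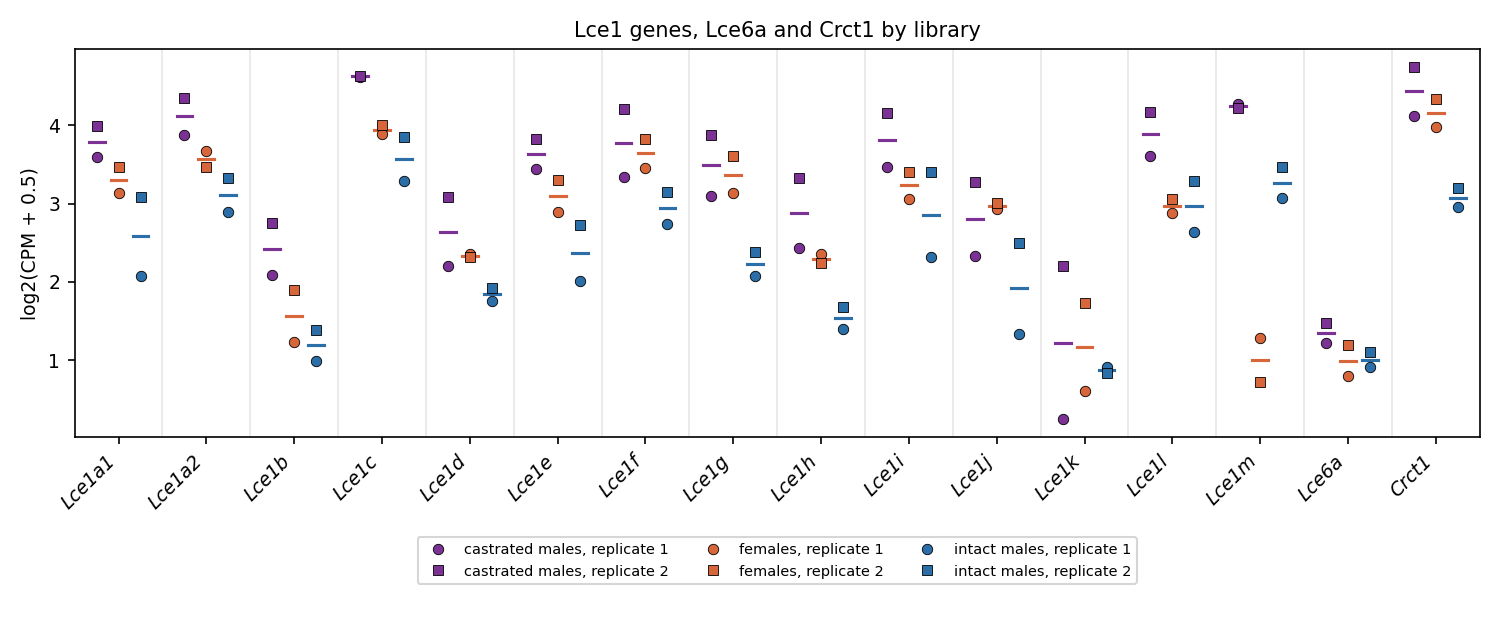
Level of the 14 Lce1 genes, Lce6a and Crct1 as log2(CPM + 0.5) in each library; circles are replicate 1, squares replicate 2, and bars the group means. Castrated males (purple) have the highest mean for most Lce1 genes, and Lce1m is the gene whose females (orange) fall below both other groups.

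Lce1m and Flg2 were the members lower in females than in both other groups with a call. Lce1m (chromosome 3, 93017810 to 93019060, minus strand) had 18.8 and 18.2 CPM in castrated males, 1.94 and 1.15 CPM in females, and 7.88 and 10.6 CPM in intact males. It fell in females against intact males (log2 fold change -2.26 ± 0.28, limma adjusted p = 0.0062) and rose in castrated males against females (3.24 ± 0.28, adjusted p = 0.00103). The 3 groups did not overlap, and the castrated libraries lay above the intact male ones without a call (0.98 ± 0.28, adjusted p = 0.633). Flg2, which encodes filaggrin-2, a relative of filaggrin (chromosome 3, 93197278 to 93221391, plus strand), had 18.5 and 20.3 CPM in castrated males, 4.09 and 2.18 CPM in females, and 9.59 and 7.4 CPM in intact males. It fell in females against intact males (-1.35 ± 0.30, adjusted p = 0.0354) and rose in castrated males against females (2.50 ± 0.30, adjusted p = 0.00688). Against intact males the castrated libraries were higher without overlap, with no call (1.16 ± 0.30, adjusted p = 0.545). None of the 75-base stretches of these 2 genes occur in another annotated gene.

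The nearest members to each of them moved the other way in females. Crct1, 2122 bases from Lce1m, had 16.9 and 26.4 CPM in castrated males, 15.3 and 19.7 CPM in females, and 7.24 and 8.69 CPM in intact males. It rose in females against intact males (1.09 ± 0.25, adjusted p = 0.0432). The ratio of Crct1 to Lce1m reads per library was 0.903 and 1.45 in castrated males, 7.89 and 17.1 in females, and 0.919 and 0.822 in intact males. Flg, 52.1 kb from Flg2, rose in females against intact males, and the ratio of Flg to Flg2 was 1.35 and 2.72 in castrated males, 10.7 and 34.2 in females, and 2.29 and 0.81 in intact males. Without female replicate 2, Lce1m (-1.98, adjusted p = 0.0633) and Flg2 (-0.96, adjusted p = 0.232) were not called in females against intact males, and Crct1 (0.91, adjusted p = 0.321) was not either. In castrated males against females, among the fits that left out a library, Lce1m was lost only without castrated male replicate 1 (3.24, adjusted p = 0.0504), and Flg2 without castrated male replicate 1 (2.59, adjusted p = 0.13) and replicate 2 (2.44, adjusted p = 0.103).

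**Figure D3:**
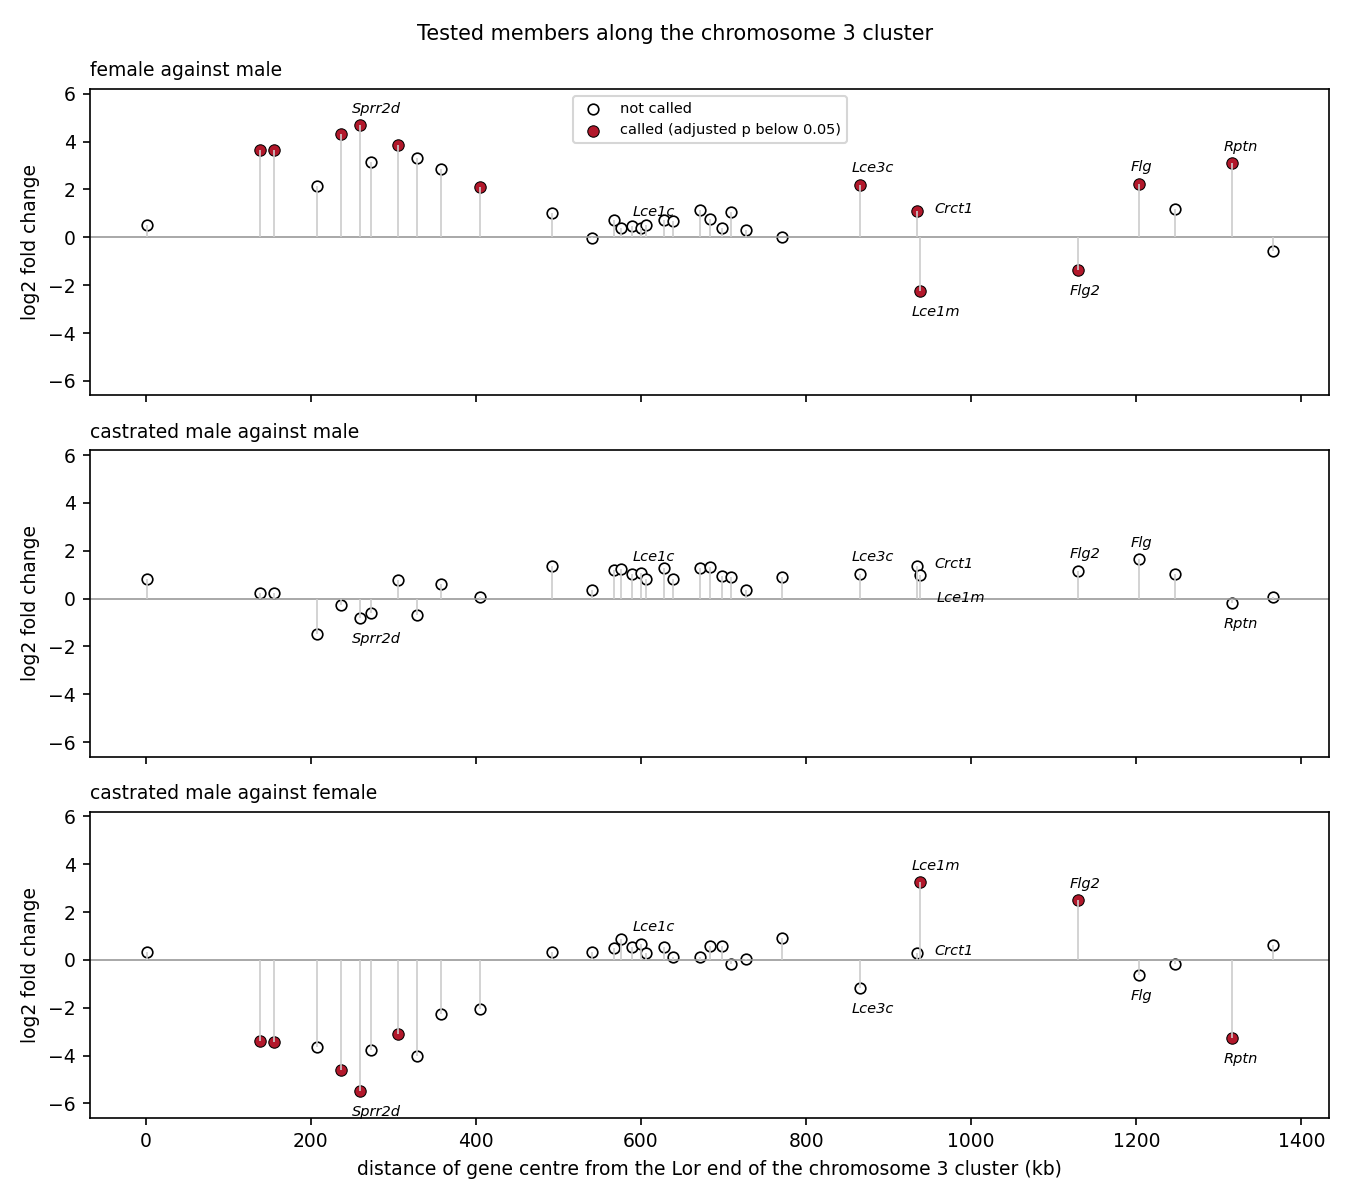
Log2 fold change of the 34 tested members on chromosome 3 against distance in kb from the Lor end of the cluster, for 3 comparisons; filled points were called. In females against males the Sprr genes between 138.6 and 404.7 kb form a block of high values, and Lce1m at 938.2 kb and Flg2 at 1129.1 kb lie below 0 between neighbours above it.

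Filaggrin and 2 of the 3 enzymes that process it or its products, Asprv1 and Hal, were lowest in intact male replicate 2. Flg (chromosome 3, 93273523 to 93293686, plus strand) had 25 and 55.2 CPM in castrated males, 43.8 and 74.5 CPM in females, and 21.9 and 5.99 CPM in intact males. It rose in females against intact males (2.25 ± 0.55, adjusted p = 0.0489), close to the threshold, and not in castrated against intact males (1.64 ± 0.55, adjusted p = 0.744). Asprv1, the retroviral-like protease that trims profilaggrin, had 53.6 and 74.8 CPM in castrated males, 57.1 and 108 CPM in females, and 34 and 15.3 CPM in intact males, and rose in females (1.76 ± 0.39, adjusted p = 0.0353). For both genes the castrated and female libraries overlapped and lay above the intact males.

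Casp14, a protease of cornifying cells that helps to break down filaggrin, had 40.1 and 49.9 CPM in castrated males, 53.5 and 77.3 CPM in females, and 46.7 and 42.9 CPM in intact males, with no call. Hal, the histidase that turns histidine from filaggrin into urocanic acid, had 40.4 and 43.4 CPM in castrated males, 27.8 and 49.2 CPM in females, and 39.5 and 9.52 CPM in intact males. It was called in castrated against intact males in 1 fit only, without intact male replicate 1 (2.09, adjusted p = 0.0495). Hrnr, which encodes hornerin, another fused S100-type protein, had 36.4 and 54.8 CPM in castrated males, 40.9 and 60.8 CPM in females, and 38.9 and 12.2 CPM in intact males. Hal and Hrnr thus split the intact males: replicate 1 lay within the range of the other groups and replicate 2 below all of them. Tchh, the trichohyalin gene of the hair follicle's inner root sheath, ran the other way, with 37.4 and 39.7 CPM in castrated males, 23.8 and 25.3 CPM in females, and 40.6 and 33.8 CPM in intact males (females against intact males -0.59 ± 0.16, adjusted p = 0.0615). Both female libraries lay below the other 4, with no call.

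Involucrin and loricrin, the envelope's major precursors, were not called. Ivl had 11.9 and 11.4 CPM in castrated males, 6.24 and 13.1 CPM in females, and 6.18 and 2.82 CPM in intact males. Lor had 2.96 and 3.98 CPM in castrated males, 2.35 and 2.95 CPM in females, and 3.2 and 0.822 CPM in intact males. Intact male replicate 2 was the lowest library for both; the other intact male library lay just under the lowest female library for Ivl and within the range of the other groups for Lor. Of the transglutaminases, Tgm1, the membrane-bound enzyme of envelope assembly, had 3.98 and 3.3 CPM in castrated males, 3.27 and 6.67 CPM in females, and 2.13 and 0.47 CPM in intact males (females against intact males 1.70 ± 0.50, adjusted p = 0.0778). Tgm3, the epidermal and hair follicle enzyme, had 301 and 321 CPM in castrated males, 345 and 411 CPM in females, and 210 and 332 CPM in intact males. Neither was called, and castrated and intact male libraries overlapped for Tgm3.

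Krtdap, Calm4 and Dmkn were the most abundant members per length. Krtdap, a small secreted protein of differentiating keratinocytes, averaged 1110 CPM per kb of exon in castrated males, 1250 in females and 725 in intact males, and Calm4, a calmodulin-like protein of skin, 895, 1280 and 797 CPM per kb in the same order of groups. Dmkn, the secreted protein dermokine, averaged 201 CPM per kb in castrated males, 285 in females and 196 in intact males. Krtdap had 704 and 801 CPM in castrated males, 725 and 973 CPM in females, and 544 and 440 CPM in intact males, and rose in females against intact males (0.78 ± 0.17, adjusted p = 0.0384). All castrated and female libraries lay above the intact males (castrated against intact males 0.62 ± 0.17, adjusted p = 0.625). Calm4 had 812 and 829 CPM in castrated males, 1000 and 1350 CPM in females, and 861 and 602 CPM in intact males (females against intact males 0.69 ± 0.20, adjusted p = 0.0739, not called). Dmkn had 418 and 463 CPM in castrated males, 524 and 724 CPM in females, and 471 and 388 CPM in intact males. Sbsn, the secreted protein suprabasin, had 110 and 131 CPM in castrated males, 93.5 and 122 CPM in females, and 125 and 61.1 CPM in intact males. Neither was called; females lay above the other groups for Dmkn, and the groups overlapped for Sbsn.

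Cnfn, which encodes the envelope component cornifelin, had 4.32 and 7.17 CPM in castrated males, 12.4 and 20.3 CPM in females, and 3.83 and 0.587 CPM in intact males. It rose in females against intact males (2.91 ± 0.58, adjusted p = 0.0272), and its 3 groups stood apart, with castrated males between. Nccrp1 had 7.51 and 10.1 CPM in castrated males, 7.05 and 14.4 CPM in females, and 5.54 and 2.94 CPM in intact males, and Calml3, another calmodulin-like protein, 30.1 and 34.8 CPM, 45.8 and 49.5 CPM, and 47.7 and 33 CPM in the same order of groups. Neither was called. Over the 19 tested members outside the Sprr and Lce families, intact male replicate 2 was the lowest library for 14 and female replicate 2 the highest for 15, against 16.5% and 31.6% of all tested genes.

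**Figure D4:**
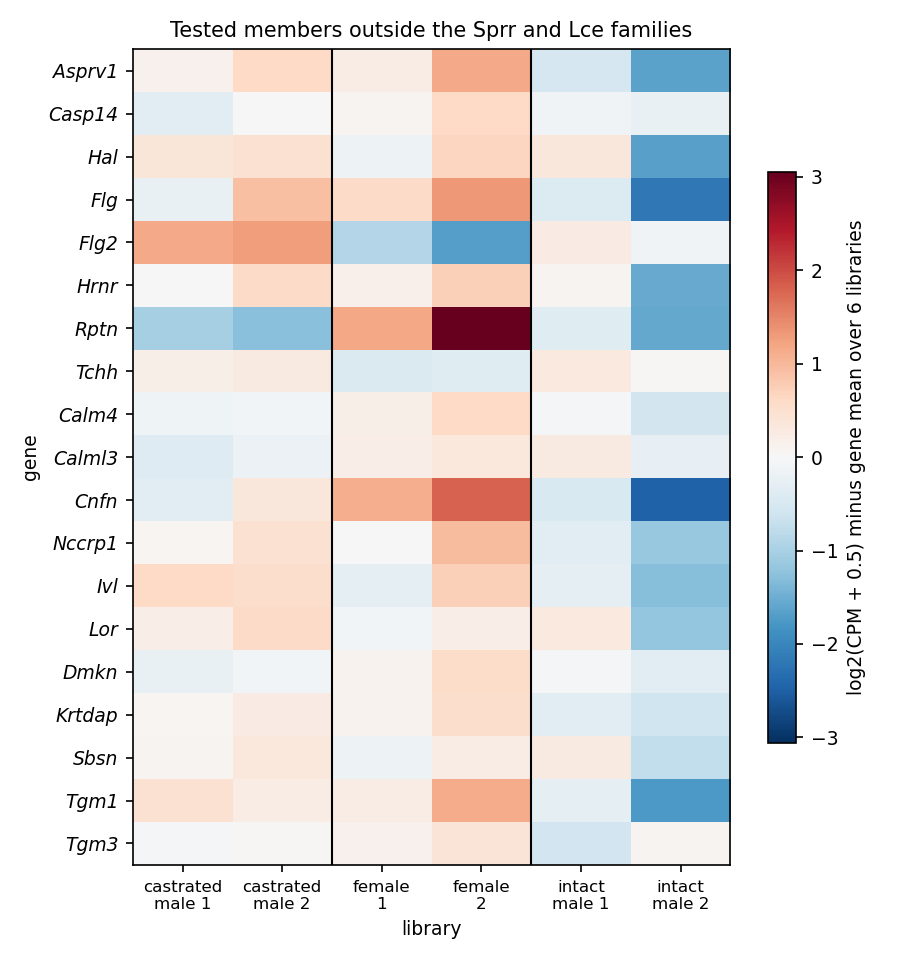
Level of the 19 tested members outside the Sprr and Lce families, as log2(CPM + 0.5) minus the gene's mean over the 6 libraries, with a column per library. Intact male replicate 2 is the lowest column for 14 genes, Rptn among them, and Flg2 and Tchh are lowest in the female columns.

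Other genes of terminal differentiation were read from lists, which were chosen with earlier results of these data known. Of 23 tested transcription factors of differentiation, 7 rose and 1 fell in females against intact males, with a median log2 fold change of 0.51; over all tested genes 3.70% were called higher and 2.39% lower, with a median of -0.012. Ehf, an epithelial ETS factor, had 61.8 and 84.9 CPM in castrated males, 268 and 480 CPM in females, and 52.9 and 48.3 CPM in intact males (females against intact males 2.81 ± 0.26, adjusted p = 0.00147). Ovol1, which restrains proliferation (1.12 ± 0.15, adjusted p = 0.00884), Nfkbiz, a regulator of NF-kappaB targets (1.33 ± 0.18, adjusted p = 0.00901) and Elf3, another epithelial ETS factor (1.68 ± 0.29, adjusted p = 0.0197) rose as well. Klf4, a factor needed for the skin barrier, fell, with 176 and 174 CPM in castrated males, 115 and 81.9 CPM in females, and 183 and 163 CPM in intact males (-0.83 ± 0.16, adjusted p = 0.0273). In castrated males against females Ehf, Elf3 and Ovol1 fell and Klf4 rose, and in castrated against intact males none was called.

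Of 14 tested genes of the spinous layer, 4 rose and 1 fell in females against intact males (median 0.38; 3.70% and 2.39% of all tested genes): Fabp5, a fatty acid carrier (3.02 ± 0.34, adjusted p = 0.00433), Krt1 (1.82 ± 0.24, adjusted p = 0.00862), Ptgs1 and Dsc2 rose, and Dsg1a, a desmosomal cadherin, fell (-0.69 ± 0.14, adjusted p = 0.0301). Of 17 other genes of the granular layer, 4 rose and none fell (median 0.78): Abca12, the lipid transporter of lamellar bodies (1.89 ± 0.34, adjusted p = 0.0208), Cers3, Pnpla1 and Klk7. Among 15 genes of desmosomes, plakins and other envelope constituents, none rose and Krt80, a keratin, fell (-0.72 ± 0.16, adjusted p = 0.0383; median -0.08). No gene of these lists was called in castrated against intact males.

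Genes of wounded or inflamed keratinocytes were read as a list that was also chosen with earlier results of these data known. Its counts are therefore not independent of the data and give no separate support. Of 11 tested, 8 rose in females against intact males and none fell, and 3.70% of all tested genes were called higher. S100a8 had 1.02 and 1.14 CPM in castrated males, 174 and 622 CPM in females, and 0.533 and 0.352 CPM in intact males. Its partner S100a9 rose by 7.73 ± 0.63 (adjusted p = 0.000865), and S100a8, S100a9 and Lcn2 would not have passed the filter without the female libraries; of the other 8 genes 5 rose, with a median of 1.98. Krt6a, a keratin of wound edges, had 57.8 and 68.3 CPM in castrated males, 179 and 531 CPM in females, and 72.9 and 63.3 CPM in intact males (2.17 ± 0.40, adjusted p = 0.0223). Serpinb3a (3.82 ± 0.24, adjusted p = 0.000196) and Stfa3 (4.72 ± 0.51, adjusted p = 0.00382) rose too. With Lcn2, Tnc and Krt6b these are the 8 genes, and the same 8 fell in castrated males against females, a comparison that shares the female libraries. Without S100a8, S100a9 and Lcn2, 5 of 8 fell there, and 1.15% of all tested genes were called lower. In these genes, as in the Sprr genes, female replicate 2 exceeded female replicate 1.

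Markers of other cell types were read in the same libraries. The summed level of 18 leukocyte markers was 325 and 379 CPM in castrated males, 820 and 1790 CPM in females, and 308 and 338 CPM in intact males. Cd74, of antigen presentation, and H2-Aa held most of this sum in every library. Cd74 had 219 and 256 CPM in castrated males, 603 and 1350 CPM in females, and 208 and 235 CPM in intact males. H2-Aa had 70.7 and 86.1 CPM in castrated males, 182 and 381 CPM in females, and 60.6 and 71.7 CPM in intact males. Of 11 tested, Cd74, H2-Aa and Cxcr2 rose in females against intact males and none fell (3.70% of all tested genes were called higher). The median log2 fold change of the 11 was 0.03. Ptprc, which defines leukocytes, had 4.66 and 3.19 CPM in castrated males, 2.56 and 3.72 CPM in females, and 2.24 and 4.46 CPM in intact males, and Ly6g, Csf3r, Mcpt4 and Cpa3 were at 0 to 0.128 CPM. The 8 bulge and germ markers summed to 697 and 690 CPM in castrated males, 1400 and 1970 CPM in females, and 736 and 543 CPM in intact males; of 6 tested, Postn, which holds most of this sum, rose in females, and of 6 inner root sheath, 12 infundibulum and sebaceous, and 7 fibroblast and other markers none was called in females against intact males. The part of other cells in the members' values was not tested. Across 15366 genes, the fold change in females against intact males fell with exon length (Spearman's rho -0.132, a correlation across genes, which are not independent), and 1740 genes of up to 1000 bases had a median of 0.104. With values adjusted for exon length, an alternative chosen after seeing the data, 14 of the 15 member calls in females against intact males remained and Flg was lost.

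The calls depended on which libraries were in the fit. Each count without a library includes members called only in that fit, so it does not show how many of the original calls were kept. In females against intact males the 15 calls became 0 without female replicate 2, 18 without female replicate 1, 17 without intact male replicate 1, 6 without intact male replicate 2, 4 without castrated male replicate 1 and 5 without castrated male replicate 2. Lce1m, Sprr2a1, Sprr2a2 and Sprr2h stayed called in all of these except the fit without female replicate 2. No call turned its direction in any fit. In castrated males against females the 8 calls became 0 without castrated male replicate 1, 3 without castrated male replicate 2, 11 without female replicate 1, 2 without female replicate 2 (Lce1m and Flg2), 11 without intact male replicate 1 and 13 without intact male replicate 2. Without the filter on low values, or with a constant prior, Lce1m alone remained called in females against intact males, and with those 2 groups alone in the fit 5 members were called.

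**Figure D5:**
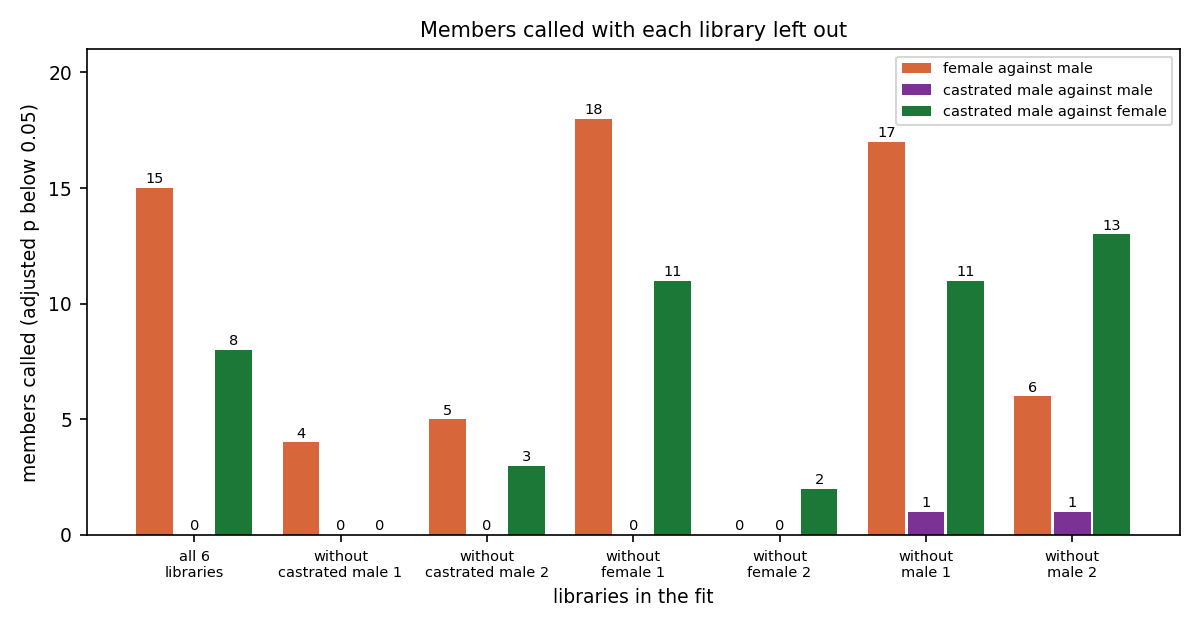
Number of the tested members called (limma adjusted p below 0.05) in each comparison, with all 6 libraries and with each library left out. In females against males the count ranges from 0 without female replicate 2 to 18 without female replicate 1.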

How the data were processed

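Ear epidermis basal keratinocytes were sequenced in 6 libraries. Per the submitters' processing notes, FastQC, STAR 2.7.5a, Picard and HTSeq 0.11.1 were used with GRCm38 and mm10; the sources used here name no annotation, strand setting or scaling, so reads of overlapping or antisense genes may be shared. The deposited values are scores: reads per gene scaled to totals of 19999024 to 19999732 per library and rounded by the authors. Each column's step was found and divided out, which gave whole reads within 0.5 of a score for 100% of values.

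Library sizes were scaled by TMM factors (0.927 to 1.03), written out in R. Genes had to reach 1.163 CPM (10 reads in a library of median size) in 2 or more libraries and 15 reads in all, and were tested with limma 3.58.1 (R 4.3.3) on log2(CPM + 0.5), with a trend on intensity in the prior, a mean for each group, and the 6 libraries fitted jointly (3 residual degrees of freedom), with Benjamini-Hochberg adjustment over 15413 genes; p-values are two-sided. No count model was run, since the scores are not counts. The read recovery and the fit were tested on simulated data. Replicates differed by more than sampling noise (chi-square per degree of freedom 4.79 in castrated males, 13.6 in females, 12.9 in intact males). Floors of 3 reads cover counting error only. The second intact male library carries another number in its library name; the title was used.

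The members, gene lists and alternatives were chosen with earlier results of these data known. Named are all members, up to 4 genes per list with the smallest p, all called genes of some lists, Krt1, Krt2, Krt5, Krt10 and Krt14, and defining markers of other cell types (Cd34, Ptprc, Ly6g, Csf3r, Mcpt4 and Cpa3). Genes beyond the 4, and these markers, were chosen after their values were seen. A few list results are not reported here. Alternatives covered scaling, pseudocount, filter, prior, groups in the fit, left-out libraries, a replicate block and exon length. Gene positions and shared sequence came from GENCODE M21, promoters from RefSeq.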

Additional observations from a re-analysis of the deposited data

How the results depend on the processing

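No member called in a comparison changed its direction in any fit. Without the filter on low values, 103 genes and 1 member were called in females against intact males, 2 genes in castrated against intact males, and 33 genes and 1 member in castrated males against females. With a constant prior the counts were 103 genes and 1 member in females against intact males, and 59 genes and 2 members in castrated males against females. With only the 2 groups compared in the fit they were 265 genes and 5 members, and 560 genes and 13 members. In castrated males against females, a pseudocount of 0.1 gave 5 members, and a mean of at least 5 CPM 173 genes and 4 members. In castrated against intact males a pseudocount of 2 gave 11 genes, and an adjustment for exon length, chosen after seeing the data, 10; that adjustment kept 14 of the 15 member calls in females against intact males. Scaling without TMM or by median ratios left the member counts at 15, 0 and 8, although Flg was lost and Tchh gained without TMM. The cause of these changes was not tested.

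With each library left out in turn, the genes called ranged from 49 to 1773 in females against intact males, 1 to 74 in castrated against intact males and 21 to 1323 in castrated males against females, and the members called from 0 to 18, 0 to 1 and 0 to 13. The fit with the replicate block called 12, 0 and 4 members, and 817, 5 and 162 genes; Asprv1, Flg, Krtdap and Sprr2d lost their call and Lce1g gained one in females against intact males, and Rptn, Sprr2b, Sprr2d and Sprr2h lost theirs in castrated males against females. The labels tie the replicate numbers to no shared litter or day, and deviations of same-numbered libraries correlated at -0.153 (females and intact males), -0.010 (castrated and intact males) and 0.194 (castrated males and females) over 15413 genes. With the intact males' numbers crossed, a pairing added after seeing the data, 25, 0 and 14 members and 1358, 6 and 712 genes were called. With 2 libraries per group, and 10 reads worth 1.163 CPM, changes of the rarest members were not detectable at this depth.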
